A study of Mus musculus with 16 samples.

Results

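The extract WS1442 was compared with its vehicle 6 h after it was added to differentiating mouse embryonic stem cells, across all genes that the arrays measured. WS1442 is a dry ethanolic extract of hawthorn (Crataegus) leaves with flowers. The comparison rests on 5 of the 16 arrays of the series, the 3 labelled WS1442 at 6 h and the 2 labelled control at 6 h, and all 5 lay on one slide. The cells were CGR8 mouse embryonic stem cells with a GFP reporter under the promoter of the heart gene Myh6, taken through cardiac differentiation, and every group carried this reporter. On day 4 the treated wells received WS1442 at 0.25 mg/mL and the control wells received DMSO alone. For side-by-side values, 3 arrays of a MeOH eluate at 6 h were used, a fraction of the extract enriched in oligomeric procyanidins that was given at 0.1 mg/mL. WS1442 and DMSO after 24 h were used in the same way, with 3 and 2 arrays on another slide. The spread behind each p-value was estimated over all 16 arrays and 6 groups of the series, not from the 5 arrays alone. Nothing in the labels says that replicates were separate cultures, so a p-value here measures a spread between samples that may be technical.

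Each array carried labelled RNA of 1 sample, and its brightness is given on a log2 scale after quantile normalisation, so that a difference of 1 is a 2-fold change. Of 29227 genes tested with limma, 1637 passed a Benjamini-Hochberg adjusted p of 0.05, which is 5.6% of those tested. These are the genes called here. Of these, 1212 were higher with WS1442 (4.15%) and 425 were lower (1.45%). Most differences were small. The median size over the called genes was 0.36 on the log2 scale, and 45 of them changed over 2-fold (0.154%), 33 upward (0.113%) and 12 downward (0.0411%). That balance turned with normexp background correction, at 2 upward and 7 downward, and without WS1442 replicate 1, at 43 upward and 94 downward. At an unadjusted p of 0.05 with a change over 2-fold, 127 genes passed (0.435%). The median difference over all genes was -0.01.

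**Figure D1:**
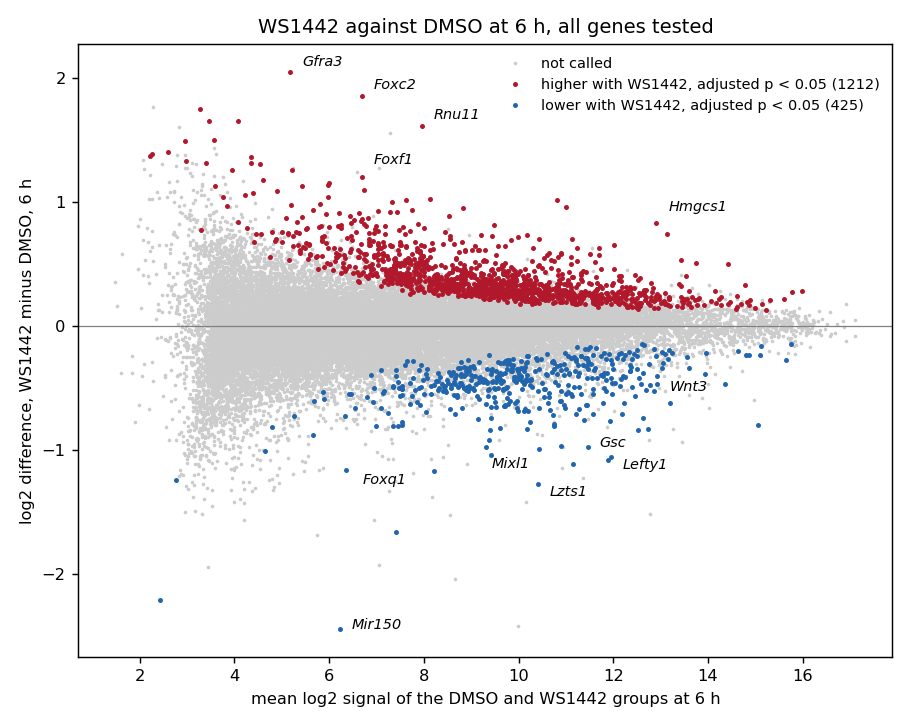
Each point is 1 gene, with the mean log2 signal of the DMSO and WS1442 groups at 6 h on the x axis and the log2 difference of WS1442 from DMSO on the y axis. Red points are the 1212 genes called higher, blue points the 425 called lower and grey points the rest, and most called genes differ by less than 1 in either direction.

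The number of calls depended on 1 control array. Without DMSO replicate 1 the same model called 238 genes, and without WS1442 replicate 3 it called 583. A fit to the 5 arrays alone called 16. Cy3 dye per cRNA was 23.5 and 26.4 pmol/µg in the DMSO samples and 26.5, 27 and 27.6 pmol/µg in the WS1442 samples, so the groups did not overlap, and the part of this in any result was not tested. RNA integrity was 10 in each of these samples, and between 59.4% and 62.8% of the spots were well above background.

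Animal cells make cholesterol from acetyl-CoA through the mevalonate pathway, and the transcription factor SREBP-2 raises most genes of this pathway when sterol in the endoplasmic reticulum is low. In the early embryo, Nodal and Wnt ligands induce the primitive streak, and Nodal signals turn on their own inhibitors, the Lefty proteins. The mesoderm that leaves the streak forms the heart, the somites and the lateral plate under FGF, BMP, Notch and retinoic acid signals.

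Genes of cholesterol synthesis were higher with WS1442 as a group. Of 24 genes in the list, all of them tested, 20 were called higher and none lower, against 4.15% and 1.45% of all genes. In 23 of them all 3 WS1442 arrays lay above both DMSO arrays, which held for 20.1% of all genes. The median difference of the list was 0.42 on the log2 scale, beside -0.01 over all genes, and it stayed between 0.33 and 0.49 under each alternative that was run. Without DMSO replicate 1, 11 members kept an adjusted p under 0.05 and the median was 0.33.

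Promoters of this group are shown because its members moved together. The RefSeq table (build GRCm38.p6) held a promoter for 16 of the 24 genes, as windows from 250 bases before to 50 bases after the start. Each of these 16 genes had the letters CCAAT, or ATTGG on the other strand, in such a window, compared with 42% of the 16099 tested genes that had a promoter in the table and 37.4% of all promoters there. Among genes called higher the share was 45.2%, and among genes called lower it was 44.7%. The core of the sterol response element, TCACNCCAC or GTGGNGTGA on the other strand, was in 1 of the 16, that of Hmgcs1, and in 1.55% of the tested genes. Both motifs were chosen after the values had been seen. The 250 bases before the start of 4 members are printed in lower case with these letters in capitals.
Hmgcs1, chr13:119690101-119690350, plus strand: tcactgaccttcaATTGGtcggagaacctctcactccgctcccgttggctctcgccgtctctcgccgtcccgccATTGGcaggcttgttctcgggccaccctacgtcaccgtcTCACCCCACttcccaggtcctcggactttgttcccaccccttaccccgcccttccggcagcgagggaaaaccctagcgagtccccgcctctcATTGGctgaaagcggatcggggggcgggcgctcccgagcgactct
Idi1, chr13:8885356-8885605, plus strand: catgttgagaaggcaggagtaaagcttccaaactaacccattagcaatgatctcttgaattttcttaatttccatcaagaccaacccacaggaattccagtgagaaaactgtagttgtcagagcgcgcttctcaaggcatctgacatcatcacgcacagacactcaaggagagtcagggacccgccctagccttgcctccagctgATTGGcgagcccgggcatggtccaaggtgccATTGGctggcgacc
Cyp51, chr5:4104698-4104947, minus strand: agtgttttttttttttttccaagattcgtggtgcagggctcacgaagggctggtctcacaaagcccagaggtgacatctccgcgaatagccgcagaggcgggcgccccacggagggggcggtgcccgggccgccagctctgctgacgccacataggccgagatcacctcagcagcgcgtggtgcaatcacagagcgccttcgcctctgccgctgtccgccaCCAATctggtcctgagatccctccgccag
Msmo1, chr8:64733579-64733828, minus strand: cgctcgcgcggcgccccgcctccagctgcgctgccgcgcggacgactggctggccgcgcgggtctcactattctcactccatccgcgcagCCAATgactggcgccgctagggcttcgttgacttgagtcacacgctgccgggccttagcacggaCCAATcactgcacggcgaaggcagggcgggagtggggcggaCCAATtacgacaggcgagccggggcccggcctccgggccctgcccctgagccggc
In the Hmgcs1 window the sterol letters TCACCCCAC lie 137 to 129 bases before the start, and ATTGG occurs 3 times. Cyp51 holds CCAAT once, 29 to 25 bases before its start.

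Hmgcs1, the enzyme that makes HMG-CoA, gave log2 signals of 12.42 and 12.58 with DMSO and of 13.29, 13.24 and 13.43 with WS1442. The arrays of the groups lay well apart, and the rise was 0.82 ± 0.07 (SE, limma adjusted p = 1.7e-05). Idi1, which isomerises isopentenyl diphosphate, stood at 8.06 on both DMSO arrays and at 8.73, 8.73 and 8.98 with WS1442, a rise of 0.75. WS1442 replicate 3 was the highest array for both genes.

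Of the enzymes that make squalene and turn it into sterols, Msmo1, a sterol C4 methyl oxidase, rose most. Its signals were 12.71 and 12.80 with DMSO and 13.45, 13.49 and 13.54 with WS1442, a rise of 0.74 ± 0.05 (adjusted p = 1.2e-06). Cyp51, lanosterol demethylase, rose by 0.62, Sc5d, sterol C5 desaturase, by 0.64, Fdft1, squalene synthase, by 0.53 and Sqle, squalene epoxidase, by 0.45. These 5 genes, Hmgcs1 and Idi1 were called with any 1 of the 5 arrays left out. A second probe of Msmo1 differed by 0.33 (adjusted p = 0.214).

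Outside the enzymes, Insig1, which holds SREBP in the endoplasmic reticulum and is itself an SREBP target, read 9.69 and 9.95 with DMSO and 10.50, 10.40 and 10.76 with WS1442, a rise of 0.73. Its adjusted p was 0.003, and 0.0717 without DMSO replicate 1. The members named next had no call and are named with their values known. Mvk, mevalonate kinase, differed by 0.23 (adjusted p = 0.055) and was called on a second probe (0.28, adjusted p = 0.0188). Srebf2, which encodes SREBP-2, differed by 0.17 (adjusted p = 0.059). Fdps, farnesyl diphosphate synthase, differed by 0.14 with overlapping groups, at 12.84 and 13.15 against 13.06, 13.23 and 13.10.

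**Figure D2:**
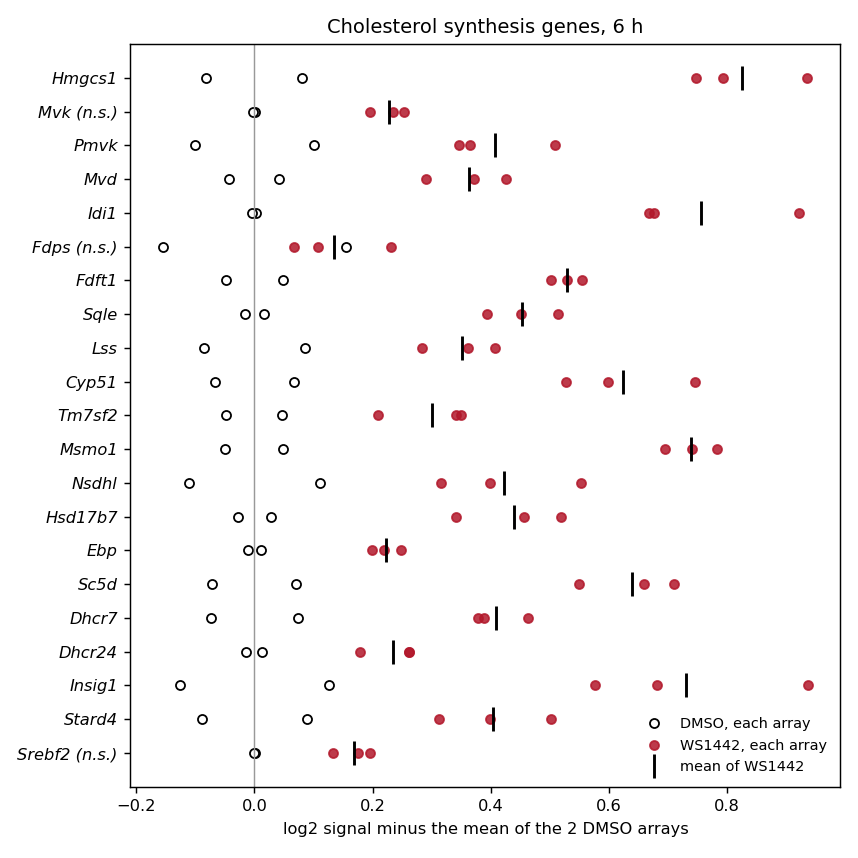
The log2 signal of each array minus the mean of the 2 DMSO arrays, for 21 of the cholesterol synthesis genes from the start of the pathway downward and then genes of sterol transport and control. Open circles are DMSO arrays, red circles WS1442 arrays, bars the WS1442 mean and n.s. a gene without a call, and of those drawn only Fdps has overlapping groups.

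In fatty acid synthesis and desaturation, 4 of 12 genes were higher and none lower, with a list median of 0.21. For this and each later list, the shares over all genes were 4.15% called higher and 1.45% lower. Scd1, stearoyl-CoA desaturase, rose by 0.42 and Fads1, a desaturase of polyunsaturated fatty acids, by 0.40. Elovl6, an elongase, rose by 0.27 and Fasn, fatty acid synthase, by 0.21. None of the 4 kept its call without DMSO replicate 1, where the adjusted p values were 0.123, 0.145, 0.223 and 0.0743. Elovl6 also lost it without DMSO replicate 2 (0.0994), WS1442 replicate 2 (0.0749) or WS1442 replicate 3 (0.112).

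Genes of the primitive streak were divided, and over all genes 4.15% were called higher and 1.45% lower. Of 18 tested, 5 were called lower and 2 higher, with a median of -0.11, and without DMSO replicate 1 the list held 6 calls and a median of -0.22. Mixl1, a homeobox gene of the streak, read 10.97 and 10.87 with DMSO and 10.04, 9.91 and 9.85 with WS1442. It fell by 0.99 ± 0.07 (adjusted p = 3e-06). Gsc, the homeobox gene of the anterior streak, read 11.84 and 12.07 against 10.97, 10.89 and 11.06, and fell by 0.98 ± 0.12 (adjusted p = 0.0005). For both genes every WS1442 array lay below both DMSO arrays, which held for 15.9% of all genes.

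Wnt3, the ligand needed for streak formation, gave 13.14 and 13.13 with DMSO and 12.72, 12.73 and 12.74 with WS1442, and fell by 0.41. The spread within each group was far smaller than the gap. Evx1, a homeobox gene of the posterior streak, read 10.48 and 10.43 against 9.80, 9.69 and 9.82, and fell by 0.69. Eomes, a T-box factor of mesendoderm, fell by 0.39 (adjusted p = 0.022), a call lost without either DMSO array (0.262 and 0.0511), WS1442 replicate 2 (0.0623) or WS1442 replicate 3 (0.0659). T, the T-box gene of nascent mesoderm, differed by -0.29 and was not called (adjusted p = 0.139). The 2 members called higher were Foxc1 and Foxc2, forkhead factors of paraxial and heart-field mesoderm.

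Foxc2 read 5.78 and 5.76 with DMSO and 7.64, 7.51 and 7.72 with WS1442, a rise of 1.86 ± 0.11 (adjusted p = 1.2e-06). Foxc1 read 6.78 and 7.46 against 8.05, 8.05 and 8.30, a rise of 1.01 in which the DMSO arrays were far apart but below all WS1442 arrays. Without DMSO replicate 1 the rise was 0.67. Among the 22 forkhead factors tested, 4 were higher and 2 lower, with a median of -0.02. Foxf1, a factor of lateral plate mesoderm, read 6.23 and 5.94 with DMSO and 7.37, 7.11 and 7.38 with WS1442, a rise of 1.20. Foxq1 went the other way, from 8.77 and 8.84 to 7.70, 7.45 and 7.73, a fall by 1.17. Foxn3 rose by 0.35 (adjusted p = 0.0056, and 0.0501 without DMSO replicate 2).

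In the list of Nodal, activin and TGF-beta genes, 5 of 26 were lower and 4 higher, and 5 calls held without DMSO replicate 1. The 5 called lower, against 1.45% of all genes, were Lefty1, Lefty2, Smad7, Tdgf1 and Foxh1. Lefty1, a secreted Nodal inhibitor, read 12.42 and 12.53 with DMSO and 11.31, 11.44 and 11.51 with WS1442, and fell by 1.06 ± 0.09 (adjusted p = 1.7e-05). Lefty2 read 10.12 and 10.56 against 9.59, 9.59 and 9.77, and fell by 0.69. Its adjusted p was 0.0093, and 0.0872 without DMSO replicate 2. Smad7, an intracellular inhibitor, fell by 0.41, and Tdgf1, the Nodal co-receptor Cripto, by 0.45. Foxh1, a nuclear partner of the Smads, fell by 0.31 (adjusted p = 0.046), a call lost without either DMSO array (0.412 and 0.0788), WS1442 replicate 2 (0.117) or WS1442 replicate 3 (0.151).

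The 4 called higher, against 4.15% of all genes, were Acvr2b, Smad3, Tgfb2 and Tgfbr2. Acvr2b, an activin type II receptor, rose by 0.28 and Smad3, which carries the signal to the nucleus, by 0.38. Tgfb2, a TGF-beta ligand, rose by 0.42 and Tgfbr2, a TGF-beta receptor, by 0.34. With DMSO replicate 1 left out the adjusted p was 0.0536 for Smad3, 0.0948 for Tgfb2 and 0.439 for Tgfbr2. With DMSO replicate 2 left out it was 0.0511 for Acvr2b and 0.0965 for Tgfb2. Tgfbr2 also lost its call without WS1442 replicate 2 (0.0938) or replicate 3 (0.134).

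**Figure D3:**
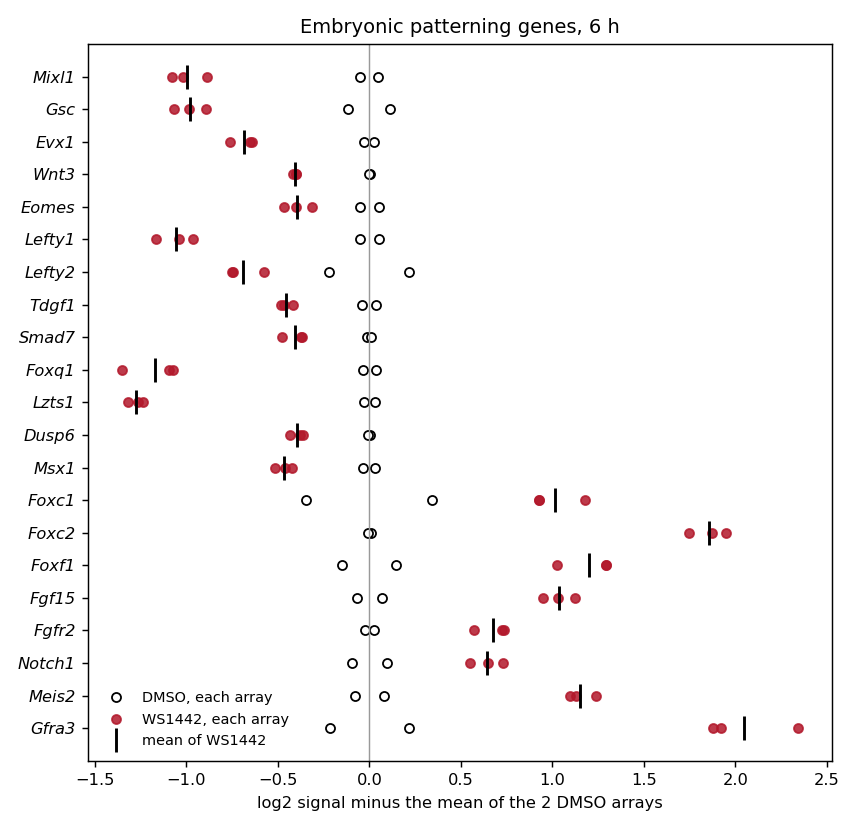
The log2 signal of each array minus the mean of the 2 DMSO arrays, for 21 genes of embryonic patterning. Open circles are DMSO arrays, red circles WS1442 arrays and bars the WS1442 mean, and in each of these genes all WS1442 arrays lie on one side of both DMSO arrays.

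The list of FGF ligands and ERK feedback genes moved in both directions. Of its 23 genes, 6 were lower and 4 higher, with a median of -0.20, against 1.45% lower and 4.15% higher over all genes. The calls included Egr1, also counted among immediate early genes, and Ccnd1, also counted among cell cycle genes. Fgf15, a secreted ligand, read 5.39 and 5.53 with DMSO and 6.50, 6.41 and 6.59 with WS1442, a rise of 1.04 ± 0.10. Fgfr2, a receptor, read 6.47 and 6.52 against 7.07, 7.23 and 7.22, a rise of 0.68. Fgf3, another ligand, rose by 0.72 (adjusted p = 0.0059, and 0.125 without DMSO replicate 1), while its 2 other probes differed by 0.43 and 0.56 and were not called.

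Among the lower genes of this list was Dusp6, a phosphatase that FGF signals induce and that turns ERK off. It read 11.27 and 11.26 with DMSO and 10.91, 10.83 and 10.89 with WS1442, and fell by 0.39. Fgf17, a ligand, fell by 0.48 and Ccnd1, cyclin D1, by 0.30. Both lost their calls when DMSO replicate 1 was left out (adjusted p = 0.0706 and 0.148), and Fgf17 also when DMSO replicate 2 was (0.0517). The list kept 3 of its 10 calls without DMSO replicate 1.

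Calls in the other signalling lists are set beside 4.15% higher and 1.45% lower over all genes. BMP genes had 3 higher and 4 lower of 21 (14.3% and 19.0%), close to the shares of the Nodal list (15.4% and 19.2%). Wnt genes had 2 and 2 of 24 (8.33% each), Notch genes 3 and none of 20 (15%), and retinoic acid genes 3 and 1 of 17 (17.6% and 5.88%). Msx1, a homeobox target of BMP, read 12.79 and 12.86 against 12.40, 12.31 and 12.37, and fell by 0.47. Meis2, a homeobox gene of the retinoic acid response, read 5.50 and 5.35 with DMSO and 6.55, 6.52 and 6.66 with WS1442, a rise of 1.15 ± 0.09 (adjusted p = 1.3e-05). Notch1, the receptor, rose by 0.64, Rspo3, an agonist of Wnt signalling, by 0.69 and Crabp2, a retinoic acid carrier, by 0.64. A second probe of Notch1 differed by 0.03 and was not called. These 5 genes were called with any 1 of the 5 arrays left out.

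Further calls were lost when 1 array was left out. Bmp7, a BMP ligand, rose by 0.64, Id2, a BMP target, by 0.52 and Rarg, a retinoic acid receptor, by 0.43. Dkk1, a Wnt inhibitor, fell by 0.75. Without DMSO replicate 1 their adjusted p values were 0.0833, 0.164, 0.11 and 0.148. Lef1, a nuclear partner of beta-catenin, rose by 0.72 and had DMSO signals of 9.99 and 9.27. Without DMSO replicate 2 the difference was 0.36 and the call was lost (adjusted p = 0.0758), as it was without WS1442 replicate 3 (0.0505).

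Immediate early genes respond to growth factor and stress signals without new protein synthesis. Of 30 tested, 13 were higher and none lower, against 4.15% and 1.45% of all genes, with a median of 0.19. Calls numbered 8 without DMSO replicate 1. Egr2, a zinc finger factor, read 7.33 and 7.88 with DMSO and 8.59, 8.64 and 8.67 with WS1442, a rise of 1.02. Jund, an AP-1 subunit, read 11.59 and 11.78 against 12.30, 12.38 and 12.34, a rise of 0.65. Klf10, a zinc finger factor induced by TGF-beta, read 8.78 and 8.90 against 9.47, 9.36 and 9.50, a rise of 0.61.

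Arc rose by 0.65, the nuclear receptor Nr4a1 by 0.63, the stress factor Atf3 by 0.44 and Klf6 by 0.40. Egr3 rose by 0.91 on its brightest probe, while a second probe differed by -0.20 and another by 0.83, neither with a call, and the median of its probes differed by -0.032. Jun rose by 0.46 and Dusp1, a phosphatase of MAP kinases, by 0.31. Both lost their calls with DMSO replicate 1 left out (adjusted p = 0.0672 and 0.0969). The RefSeq table held promoters for 9 of the 13 called genes, and the cyclic AMP response element TGACGTCA, the same on both strands, was in 2, those of Btg2 and Dusp1, compared with 2.83% of the tested genes with a promoter. The AP-1 letters TGANTCA, on either strand, were in none of the 9 and in 7.71% of the tested genes. The window of Dusp1 is shown with that element in capitals, as the 250 bases before its start.
Dusp1, chr17:26508473-26508722, minus strand: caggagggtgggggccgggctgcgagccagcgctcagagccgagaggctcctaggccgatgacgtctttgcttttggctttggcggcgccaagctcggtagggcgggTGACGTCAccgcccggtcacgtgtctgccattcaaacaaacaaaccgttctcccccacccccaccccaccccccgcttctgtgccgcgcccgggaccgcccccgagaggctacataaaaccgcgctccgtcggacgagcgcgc

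NRF2, a factor released by electrophiles and oxidants, turns on glutathione and thioredoxin enzymes. Its list is again set beside 4.15% of all genes called higher and 1.45% lower. Of 26 tested targets, 9 were higher and none lower, and 1 call held without DMSO replicate 1. Srxn1, sulfiredoxin, was that gene. It read 9.02 and 9.13 with DMSO and 9.78, 9.94 and 9.94 with WS1442, a rise of 0.81 ± 0.07 (adjusted p = 1.7e-05). Gclm, the modifier subunit of glutamate-cysteine ligase, read 10.03 and 10.09 against 10.36, 10.45 and 10.47, a rise of 0.37. Cbr3, a carbonyl reductase, rose by 0.43. Their adjusted p values were 0.0076 and 0.0071, and 0.116 and 0.147 without DMSO replicate 1.

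The antioxidant response core, TGACNNNGC or GCNNNGTCA on the other strand, was in the promoter windows of 9 of the 21 tested NRF2 targets that the RefSeq table held, and of 4 of the 7 called ones. It was in 15.5% of all tested genes with a promoter. Gclm is shown, with the match in capitals 134 to 126 bases before the start, as the 250 bases before its start.
Gclm, chr3:122245307-122245556, plus strand: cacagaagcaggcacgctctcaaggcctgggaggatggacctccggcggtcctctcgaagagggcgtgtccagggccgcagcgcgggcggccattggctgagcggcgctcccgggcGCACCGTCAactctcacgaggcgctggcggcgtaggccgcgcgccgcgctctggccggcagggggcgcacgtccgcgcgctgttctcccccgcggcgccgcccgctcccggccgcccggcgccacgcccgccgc

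Hypoxia targets and glycolysis genes had 9 of 31 higher and none lower, with a median of 0.22. The DMSO arrays also differed from each other in this list and in others. DMSO replicate 2 was above replicate 1 in 26 of the 31 genes, by a median of 0.24, beside 52.1% of all genes and a median of 0.01. It was above in 19 of 24 cholesterol genes (median 0.12), 25 of 26 NRF2 targets (0.08), 19 of 20 Notch genes (0.20) and 11 of 12 fatty acid genes (0.08). The part of this difference in the calls was not tested. Without replicate 1 the hypoxia list held 2 calls and a median of 0.13, and without replicate 2 it held 14 calls and a median of 0.32. Adm, the vasodilator adrenomedullin, read 6.53 and 7.11 with DMSO and 7.62, 7.80 and 8.04 with WS1442, a rise of 1.00 ± 0.15. Slc2a1, a glucose transporter, read 14.02 and 14.33 against 14.60, 14.63 and 14.77, a rise of 0.50. These 2 calls held without either DMSO array.

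Bnip3, a mitophagy receptor, read 10.20 and 10.86 with DMSO and 11.30, 11.51 and 11.65 with WS1442, a rise of 0.95 (adjusted p = 0.017). Without DMSO replicate 1 the difference was 0.62 and the call was lost (0.313), as it was without WS1442 replicate 3 (0.0636). Pfkp, a phosphofructokinase, rose by 0.41 (0.0097, and 0.194 without DMSO replicate 1), with its 2 other probes at 0.24 and 0.21 and not called.

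Of 20 NF-kB and inflammatory targets, 7 were higher and none lower, with a median of 0.32. Ccl2, a chemokine for monocytes, read 5.27 and 5.35 with DMSO and 6.08, 6.31 and 6.48 with WS1442, a rise of 0.98 ± 0.17. Csf1, a macrophage growth factor, rose by 0.44 and Icam1, an adhesion molecule, by 0.36. No member of the list was called without DMSO replicate 1, where the adjusted p was 0.0751 for Ccl2, 0.118 for Csf1 and 0.131 for Icam1. Of 24 canonical p53 targets, 7 were higher and 1 lower. Trp53inp1, an autophagy and stress gene, read 10.83 and 10.90 against 11.28, 11.38 and 11.42, a rise of 0.50. Cdkn1a, the cell cycle inhibitor p21, rose by 0.39, and Fas, a death receptor, fell by 0.29. The adjusted p of the latter pair without DMSO replicate 1 was 0.0768 and 0.122, and a second probe of Fas differed by -0.07.

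Genes that mark cell types were called at 6 h in small numbers, at shares given below beside those of all genes. Pou5f1, a pluripotency factor, lay between 13.66 and 13.76 on the 5 arrays and Actc1, the cardiac actin, between 14.04 and 14.49, so both were well above background. Myh6 and Myh7 were not among the genes tested. Cdh5, which marks endothelium, was not well above background on any of the 5 arrays. Flt4, Etv2, Egfl7 and Kdr, the brightest members of the endothelium list, were well above background on all 5. In bulk RNA, fewer cells of a type and less RNA per cell cannot be told apart.

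In the lists of cell type markers, sarcomere genes had 1 higher and 1 lower of 17, cardiac progenitor factors none and 1 of 15, pluripotency genes none and 2 of 20, endoderm none and 1 of 16, neuroectoderm none and 2 of 16, endothelium 1 and none of 17, and primitive blood none of 14. Over all genes, 4.15% were called higher and 1.45% lower. Called lower were 12.5% of the neuroectoderm list, 10% of pluripotency, 6.67% of cardiac progenitor, 6.25% of endoderm and 5.88% of sarcomere genes. The cardiac progenitor call and the endoderm call were the same gene, Gata6. Called higher were 5.88% of sarcomere and 5.88% of endothelium genes. The medians of these lists lay between -0.16 and 0.02. Apart from 1 pluripotency gene, Tdgf1, no call in these lists held without DMSO replicate 1. Actc1 differed by -0.23 and was not called (adjusted p = 0.175). Myl7, the atrial myosin light chain, rose by 0.61 and Myl3, the ventricular one, fell by 0.67. Gata6, a factor of heart progenitors and endoderm, fell by 0.62, Utf1 by 0.41, the neural factors Otx2 and Zic2 by 0.53 and 0.42, and the endothelial Egfl7 rose by 0.26.

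The adjusted p values of these genes without DMSO replicate 1 were 0.461 for Myl7, 0.296 for Myl3, 0.102 for Gata6, 0.18 for Utf1, 0.149 for Otx2, 0.137 for Zic2 and 0.399 for Egfl7. Without DMSO replicate 2 they were 0.101 for Myl3, 0.111 for Gata6, 0.19 for Otx2 and 0.0726 for Zic2. Leaving out WS1442 replicate 1 gave 0.0698 for Myl7. Leaving out WS1442 replicate 2 gave 0.0559 for Gata6, 0.101 for Otx2 and 0.0504 for Egfl7. Leaving out WS1442 replicate 3 gave 0.143 for Myl7, 0.133 for Myl3, 0.0573 for Otx2 and 0.101 for Egfl7.

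In the remaining lists, genes of the unfolded protein response of the endoplasmic reticulum had no call among 16 and cell cycle genes 1 higher and 1 lower among 30. The ATF4 amino acid response had 4 higher and 3 lower of 23, extracellular matrix genes 2 and 2 of 29, and heat shock chaperones 2 and none of 15. Higher calls prevailed in other lists, against 4.15% of all genes. Circadian clock genes had 5 higher and 1 lower of 15, apoptosis genes 5 and none of 22, and genes of the epithelial-mesenchymal transition 4 and none of 17. Casp4, 1 of the apoptosis calls, was not well above background on any of the 5 arrays. The transition calls include Esrp1 and Krt19, genes of epithelial cells, so their count gives no direction of the transition. Targets of the aryl hydrocarbon receptor had 2 higher of 8, among them Nfe2l2, which encodes NRF2. Cyp1a1 and Cyp1a2 of that list were not among the genes tested. Metallothioneins and metal-handling genes had 1 higher of 14. Without DMSO replicate 1 the clock genes and the transition genes held 1 call each, and the others named here none. Adamts9, a secreted protease that belongs to the matrix list, fell by 0.53 on its brightest probe (adjusted p = 0.036). Its 2 other probes differed by -1.05 and -1.10 and were both called (limma adjusted p = 0.00191 and 0.0354). On the brightest probe the difference was -0.35 without DMSO replicate 2. The call was lost without either DMSO array (0.0629 and 0.261), WS1442 replicate 2 (0.0943) or WS1442 replicate 3 (0.0625).

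**Figure D4:**
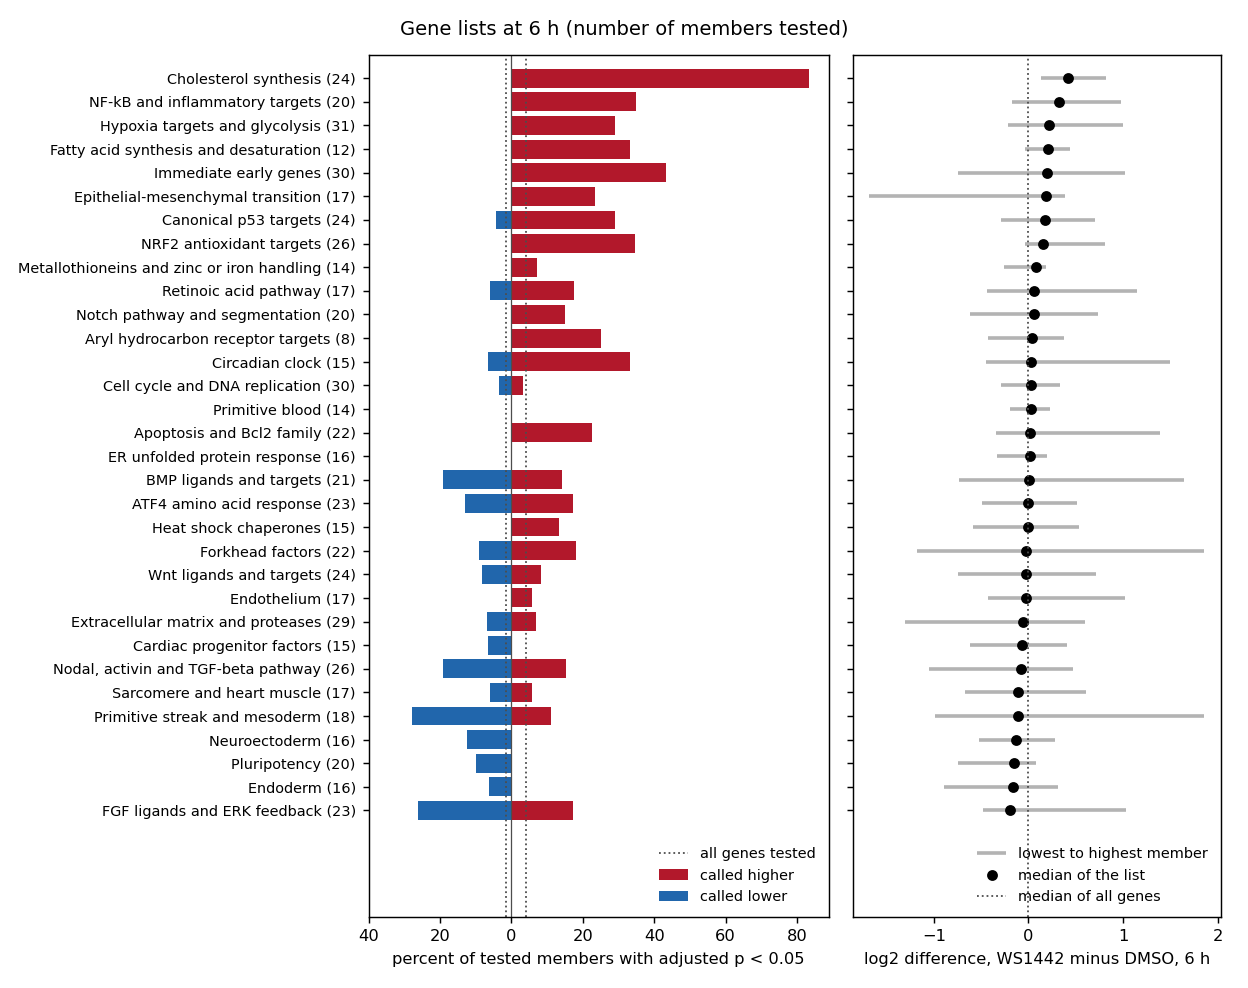
The left panel gives, for each of 32 gene lists, the percent of tested members called higher (red, rightward) or lower (blue, leftward), with dotted lines at the shares of all genes, 4.15% and 1.45%. The right panel gives the median log2 difference of each list as a point and its lowest to highest member as a grey line, and cholesterol synthesis has the highest share and the highest median, 0.42.

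The 20 largest rises among called genes with a symbol lay between 1.02 and 2.05 on the log2 scale. Gfra3, a co-receptor for artemin, had the largest. It read 3.94 and 4.37 with DMSO and 6.08, 6.03 and 6.50 with WS1442, a rise of 2.05 ± 0.20 (adjusted p = 9.6e-05). Rnu11, the RNA of the minor spliceosome particle U11, read 7.14 and 7.16 against 9.05, 8.59 and 8.66, a rise of 1.61. Ror1, a receptor for Wnt5a, rose by 1.25, Pcdh19, a protocadherin, by 1.14, Myl1, a myosin light chain, by 1.10 and Bhlhe41, a repressor of the clock, by 1.08. Of the other 2 probes of Myl1, 1 differed by 0.78 and 1 by -0.85, neither with a call. Normexp background correction, which adds an offset before the log, lowered these values to 0.80 for Gfra3, 0.46 for Ror1, 0.57 for Pcdh19, 0.70 for Myl1 and 0.35 for Bhlhe41.

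The 20 largest falls lay between 0.77 and 2.44. Lzts1, a leucine zipper protein, had the smallest adjusted p among the genes named here (7.6e-08). It read 11.02 and 11.08 with DMSO and 9.81, 9.73 and 9.79 with WS1442, and fell by 1.27 ± 0.06. Its other probes differed by -0.88 and -0.45. Sp6, a zinc finger factor, read 9.96 and 9.72 against 9.10, 8.86 and 8.79, and fell by 0.92. Angpt2, a ligand of the vessel receptor Tie2, fell by 0.88 and Cav1, the main protein of caveolae, by 0.81.

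The fall with the largest size was also among the least certain. The probe of the microRNA gene Mir150 read 8.16 and 6.75 with DMSO and 4.98, 4.49 and 5.56 with WS1442, a fall by 2.44 ± 0.52 (adjusted p = 0.015, and 0.275 without DMSO replicate 1). Trem2, a receptor of myeloid cells, read 12.03 and 11.39 against 10.93, 10.83 and 10.01, and fell by 1.11. Gsdma, a gasdermin, read 12.59 and 12.28 against 11.74, 11.43 and 10.88, and fell by 1.08. In these 3 genes DMSO replicate 1 was the higher control. Without it the adjusted p was 0.378 for Trem2 and 0.146 for Gsdma, and without WS1442 replicate 3 it was 0.0836 for Trem2. DMSO replicate 1 was above replicate 2 in 14 of the 20 largest falls and in 10 of the 20 largest rises.

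The MeOH eluate at 6 h was compared with the same 2 DMSO arrays and was given at another dose, so the values are set side by side. Signs were not the same for every called gene. Nqo1, a quinone reductase and NRF2 target, was 0.35 above DMSO with WS1442 and differed by -0.16 with the eluate. Its call at 6 h with WS1442 (adjusted p = 0.034) was lost without either DMSO array (0.368 and 0.0562), WS1442 replicate 2 (0.0632) or WS1442 replicate 3 (0.117). The median of the cholesterol list was 0.42 with WS1442 and 0.63 with the eluate, that of the NF-kB list 0.32 and 0.56, and that of the streak list -0.11 and -0.57. The difference from DMSO was -0.98 with WS1442 and -2.66 with the eluate for Gsc, -0.99 and -2.39 for Mixl1, -1.27 and -3.45 for Lzts1, and 0.98 and 2.52 for Ccl2.

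The signals of the eluate and of WS1442 at 6 h were also tested against each other. That difference does not use the DMSO means, but the DMSO arrays share in the variance of the model. The test called 3549 genes (12.1%), and 1417 without WS1442 replicate 3. The difference of the eluate from WS1442 was -1.68 ± 0.11 for Gsc (adjusted p = 7.3e-07), -1.40 for Mixl1, -2.18 for Lzts1 and 1.55 for Ccl2. All 7 called genes of the streak list lay further from DMSO with the eluate, as did all 7 of the 20 called cholesterol genes that differed between the treatments. For Gclm the difference was -0.24 (adjusted p = 0.022), with the eluate 0.13 and WS1442 0.37 above DMSO.

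At 24 h, 18 of the 20 cholesterol genes called at 6 h were also called against DMSO, all 18 of them higher. The cholesterol list had a median of 0.42 at 6 h and 0.42 at 24 h, and all 20 genes had the same sign at 24 h. The 2 without a call at 24 h were Ebp, a sterol isomerase, at 0.03 above DMSO (adjusted p = 0.766), and Stard4, a sterol carrier, at 0.16 (0.199). At 6 h they had risen by 0.22 and 0.40, and without DMSO replicate 1 neither was called (0.174 and 0.259). Ebp also lost its call without DMSO replicate 2 (0.107), WS1442 replicate 2 (0.0666) or WS1442 replicate 3 (0.071), and Stard4 without WS1442 replicate 3 (0.0647). Hmgcs1 was 0.82 above DMSO at 6 h and 0.61 at 24 h, and Msmo1 0.74 and 1.07. The hypoxia list had a median of 0.22 at 6 h and -0.03 at 24 h. The difference between the times was tested for each gene within the same model, and 3699 genes passed (12.7%), or 1473 without DMSO replicate 1 of 6 h. The time points lay on separate slides, so each time is given as a difference from the DMSO arrays of its own slide. Cy3 dye per cRNA at 24 h was 26.1 and 25.8 pmol/µg with DMSO and 31.8, 32.8 and 32.3 pmol/µg with WS1442. RNA integrity was 8.6 in WS1442 replicate 2 of 24 h and 10 in the other WS1442 and DMSO samples of that time. The part of dye or RNA integrity in these values was not tested.

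Of the 20 largest rises, 14 had the same sign at 24 h and 11 passed the test of a difference between times. Of the 20 largest falls, 9 had the same sign and 16 passed. Signs were counted whether or not a gene was called at 24 h. Lefty1 differed from DMSO by -1.06 at 6 h and by 0.11 at 24 h (adjusted p of the difference = 0.00016). The values were 2.05 and -0.38 for Gfra3 and 1.20 and -0.77 for Foxf1. Against DMSO at 24 h, Foxf1 was called, and Lefty1 and Gfra3 were not (limma adjusted p = 0.38 and 0.2). Wnt3 differed by -0.41 at 6 h and by -0.48 at 24 h, and the test of the difference gave an adjusted p of 0.41.

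**Figure D5:**
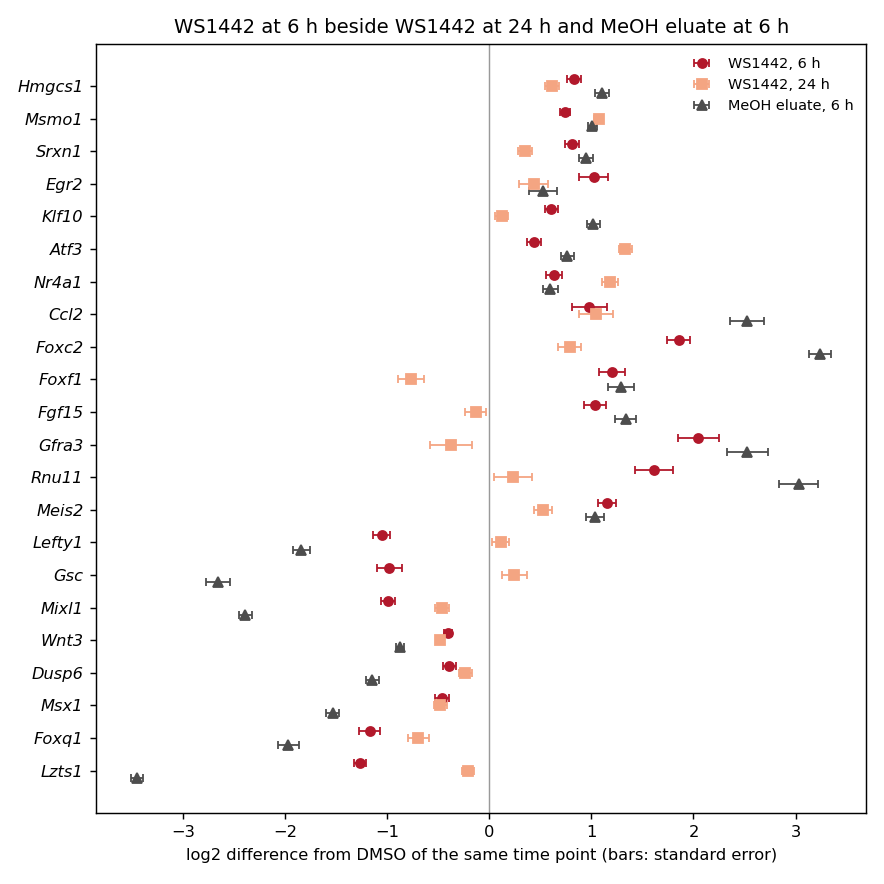
The log2 difference from the DMSO arrays of the same time point for 22 genes, with WS1442 at 6 h as circles, WS1442 at 24 h as squares and the MeOH eluate at 6 h as triangles, and bars for the standard error. Sterol genes lie to the right of 0 in each comparison, whereas Lefty1, Gsc, Gfra3, Foxf1 and Fgf15 lie on opposite sides of 0 at 6 h and 24 h with WS1442. Of the latter genes, only Foxf1 was called against DMSO at 24 h.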

How the data were processed

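The authors hybridised Cy3-labelled cRNA of each sample to a 1-colour Agilent array and read the scan with Feature Extraction 11.5.1.1. The deposited intensity is its processed signal, which is background-subtracted and detrended array by array. A second deposited table holds intensity values that the authors quantile normalised over the 16 arrays. Here log2 processed signals were averaged over the spots of a probe without non-uniform spots, and quantile normalised over 16 arrays. A probe was retained if at least 1 group had it well above background on all its arrays, and the probe with the highest mean signal stood for a gene. Of 60273 probes, 36729 were kept, and missing spots left 49 values of the 5 arrays empty. A limma 3.58.1 model (R 4.3.3) with 6 group means over 16 arrays, variances trended on signal and Benjamini-Hochberg adjustment gave each test, and the code was tested on simulated data. Lists are described by counts and medians, with no test, and 3 members of the cholesterol list are counted but not reported here one by one. Named genes were drawn from the 20 largest rises and 20 largest falls among called genes with a symbol. These had groups that did not overlap and were well above background in the higher group. Further sources were called members of 32 lists, up to 4 of the brightest members of lists with at most 1 call, and Lefty1, Lzts1, Adamts9 and Foxc2. Not every gene that met these rules is named. Mvk, Srebf2, Fdps, T, Actc1, Pou5f1 and Cdh5 were named outside them. Members and lists were chosen with earlier results of these data known. Gene names came from RefSeq accessions or the array files. Alternatives were the authors' table, 75th percentile scaling, normexp background, other filters, the median of probes, other variance models, array weights, slide row or replicate as a block, fewer arrays, the methods' t-test and leaving out each array. Promoter letters were counted with Python 3.11.15.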

Additional observations from a re-analysis of the deposited data

Results flagged for a closer look

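Of the 99 genes given with values, 45 differed between 6 h and 24 h in their difference from DMSO (limma test of WS1442 minus DMSO at 24 h minus the same at 6 h, adjusted p under 0.05, 12.7% of all genes). Of these, 23 had the opposite sign at 24 h, 15 the same sign at a smaller size and 7 the same sign at a larger size. Signs were counted whether or not a gene was called against DMSO at 24 h. Among the 23, those called there included Fgf3, Foxf1, Myl7, Egfl7, Pfkp and Foxh1. Those not called there included Lefty1, Gsc, Gfra3, Fgf15, Gsdma and Cav1. For the latter genes the values do not show a reversal. The values that follow are differences between the times on the log2 scale, with negative values where the difference from DMSO was lower at 24 h.

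Among genes higher at 6 h, it was -2.42 for Gfra3, -2.07 for Fgf3, -1.97 for Foxf1, -1.78 for Myl7 and -1.38 for Rnu11. It was -1.17 for Fgf15, -1.07 for Foxc2, -1.04 for Ror1 and -1.03 for Lef1. Smaller values were -0.85 for Egfl7, -0.83 for Fgfr2, -0.76 for Id2, -0.64 for Pfkp, -0.63 for Meis2, -0.60 for Notch1, -0.55 for Rspo3 and -0.53 for Rarg. Klf10 gave -0.49, Srxn1 -0.46, Acvr2b -0.35, Smad3 -0.31 and Jund -0.31, and Mvk, which had no call at 6 h, gave -0.42.

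Some genes higher at 6 h stood further above DMSO at 24 h. The difference was 0.89 for Atf3, 0.55 for Nr4a1, 0.49 for Cdkn1a, 0.44 for Dusp1, 0.34 for Fads1, 0.33 for Msmo1 and 0.27 for Fasn. Msmo1 was the only called gene of the cholesterol list that passed this test.

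Among genes lower at 6 h, the values were 1.47 for Trem2, 1.23 for Gsc, 1.20 for Gsdma, 1.17 for Lefty1, 1.15 for Sp6, 1.06 for Lzts1, 0.97 for Cav1 and 0.92 for Myl3. They were 0.76 for Utf1, 0.75 for Angpt2, 0.73 for Dkk1, 0.58 for Fgf17 and for Foxh1, 0.53 for Mixl1 and 0.48 for Foxq1. Slide and time point cannot be told apart, although each value is a difference within a slide.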

How the results depend on the processing

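The number of called genes, 1637, was 986 with variances not trended on signal, 479 in a fit of the 8 arrays of 6 h, 16 in a fit of the 5 arrays and 1 by the methods' t-test, and between 238 and 2208 with 1 array left out. The 45 that also changed over 2-fold became 9 with normexp background correction, 27 when a gene had to be well above background on all 5 arrays, 23 with 8 arrays, 6 with 5 and 0 by the methods' t-test, which called 54 at its own limits of an unadjusted p and a 2-fold change, and the count ran from 23 to 137 with 1 array left out. The 127 genes at those limits became 12 with normexp, 36 with the stricter filter, 363 without a filter and 124 to 326 with 1 array left out. Their share of higher genes, 58.3%, was 43.3% with 75th percentile scaling and 16.7% with normexp, and among the called genes the 74% became 85.1% with the percentile. The eluate against WS1442 gave 1417 to 4658 calls with 1 array left out, and the test between times 1473 to 4007. Calls in the cholesterol list were 0 by the methods' t-test, 3 with 5 arrays and 11 to 20 with 1 array left out. Of the 94 named genes with a call, 48 kept it with each of the 5 arrays left out in turn, 78 with the 8 arrays, 13 with the 5, and 71 under every alternative that kept 16 arrays and limma. The log2 difference of Egr3 turned with the median of its probes (-0.032), and the log2 difference of Fdps, which had no call, ran from -0.0195 without DMSO replicate 1 to 0.29 without DMSO replicate 2. Normexp lowered the size of others by over 1.5 times, to 1.21 for Foxc2, 0.79 for Foxf1, 0.56 for Fgf15, 0.44 for Fgfr2, 0.58 for Meis2, 0.49 for Ccl2, 0.53 for Egr3, -1.30 for Mir150, -0.40 for Angpt2, -0.35 for Adamts9 and -0.19 for Ccnd1, of which Ccnd1 lost its call. Where a group was left with 1 array, that array was assumed to vary like the other groups. The number of arrays limits the precision of all these values, and other causes of these changes were not tested.

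Samples were treated as unpaired, and whether replicate numbers pair them is not known. The deviations of same-numbered DMSO and WS1442 arrays correlated at -0.07 and -0.10. With 2 DMSO arrays these deviations mirror each other, so the values cannot decide the question. Same-numbered WS1442 and eluate arrays of 6 h correlated at 0.31, -0.055 and -0.02. With the replicate number as a block, 898 genes were called with 16 arrays and 31 with 5, of which 6 changed over 2-fold, and 5 genes of the cholesterol list were called with 5 arrays.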
